A study of Mus musculus with 24 samples.

Results

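Hindlimb buds (HL) of U11 mutant mouse embryos were compared with their forelimb buds (FL) at embryonic stage E10.5. The comparison rests on 6 of the 24 libraries of the series, 3 titled as mutant HL and 3 as mutant FL at that stage. It covers the 11955 genes that reached 1 TPM in at least 3 of the 12 E10.5 libraries. Embryos called mutant carry the genotype U11flx/flx::Prrx1-Cre+ and those called WT carry U11flx/flx::Prrx1-Cre-, both on strain C57/Bl6, so the WT groups hold floxed U11 alleles too. The floxed gene, Rnu11, encodes the U11 RNA, a component of the minor spliceosome, which removes a rare class of introns. Set beside the mutants are 3 HL and 3 FL libraries of E10.5 WT embryos, and 3 HL and 3 FL libraries of mutants at E11.5. The labels do not say which embryos a library came from or how many buds it pooled, so a p reflects how far these libraries vary, and that variation may be technical.

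Prrx1-Cre is known to act in the mesenchyme of the limb bud, and in mice it becomes active in the forelimb before the hindlimb. The ectoderm, blood, vessels and muscle precursors of a bud come from other lineages. A mouse forelimb bud forms ahead of the hindlimb bud, so at one age the hindlimb is the younger organ. Limb type is set by transcription factors: Pitx1, Tbx4 and Isl1 mark the hindlimb, Tbx5 marks the forelimb, and Hox genes of the caudal end of their clusters are used in the hindlimb field. The question answered here is which of these and other genes separate the limbs of embryos with the mutant genotype. How far U11 was lost in these buds is not reported here.

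Levels are TPM, an abundance corrected for transcript length, with the libraries brought to one median over 4168 genes. Differences are HL minus FL on the log2(TPM + 1) scale with their standard error from limma, and this scale understates the change of low genes. Rescaling mattered because the deposited TPM of the median gene was 0.45 higher in HL than in FL of mutants (0.29 without FL mutant 3 and 0.22 in WT). A limma p given for the deposited scale at E10.5 tests against 0 and not against this shift. It therefore favours genes higher in HL and works against genes lower in HL. Structural RNA took 59.1%, 63.7% and 69.0% of TPM in the HL mutant libraries and 73.6%, 67.3% and 78.1% in the FL mutant ones. After rescaling the median difference of all genes was -0.02. TPM keeps no read depth, so the counting error of low values is unknown. Rnu11 itself was 189.5, 207.3 and 315.9 TPM in HL mutants and 183.7, 108.5 and 570.3 TPM in FL mutants. The 2 groups overlapped, and an exact two-sided permutation test gave p = 0.9, where 3 against 3 libraries allow no p below 0.1. Its value differed between scales, since on the deposited TPM the difference was 0.62 (exact permutation p = 0.4), and without FL mutant 3 it was 0.71 (exact permutation p = 0.2). Rnu11 overlaps an antisense gene, Gm28872, and the strand counted is not given, so their reads cannot be told apart.

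One of the 6 libraries, FL mutant 3, went against its label in part. It held hindlimb transcripts and, beside them, transcripts of the tail bud and presomitic mesoderm. T, a factor of the tail bud, was at 8.91 TPM there and at most 0.491 TPM in the other 11 E10.5 libraries. Msgn1, a regulator of presomitic mesoderm, was at 4.54 TPM against at most 0.26 TPM elsewhere, and Tbx6, of the same tissue, at 1.32 against at most 0.183 TPM. The caudal factors Cdx2 (1.20 TPM) and Cdx4 (1.05 TPM) and the most caudal Hox genes Hoxc12 (0.977 TPM) and Hoxb13 (1.23 TPM) were likewise highest there. Of the 12 listed hindgut, cloaca and tail bud genes, 8 had their highest E10.5 level in that library, and their summed level was 17.0 TPM against 1.30 to 2.32 TPM in the other 5 mutant libraries. The neural and glial gene Fabp7 stood at 11.4 TPM and the neural gene Sox2 at 2.57 TPM. Sox2 was not particular to it, since HL WT 1 had 1.76 TPM. The somite gene Meox1 was at 12.1 TPM there and at 11.4 TPM in HL WT 1, against 2.25 to 4.43 TPM in the other mutant libraries. Other libraries also held genes of their own. At 1 TPM or more in 1 library and below 0.3 TPM in the other 11, FL mutant 3 had 43 genes (9 nuclear protein-coding). FL WT 1 had 66 such genes (28 nuclear protein-coding), FL WT 3 had 38 and HL WT 1 had 33.

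**Figure D1:**
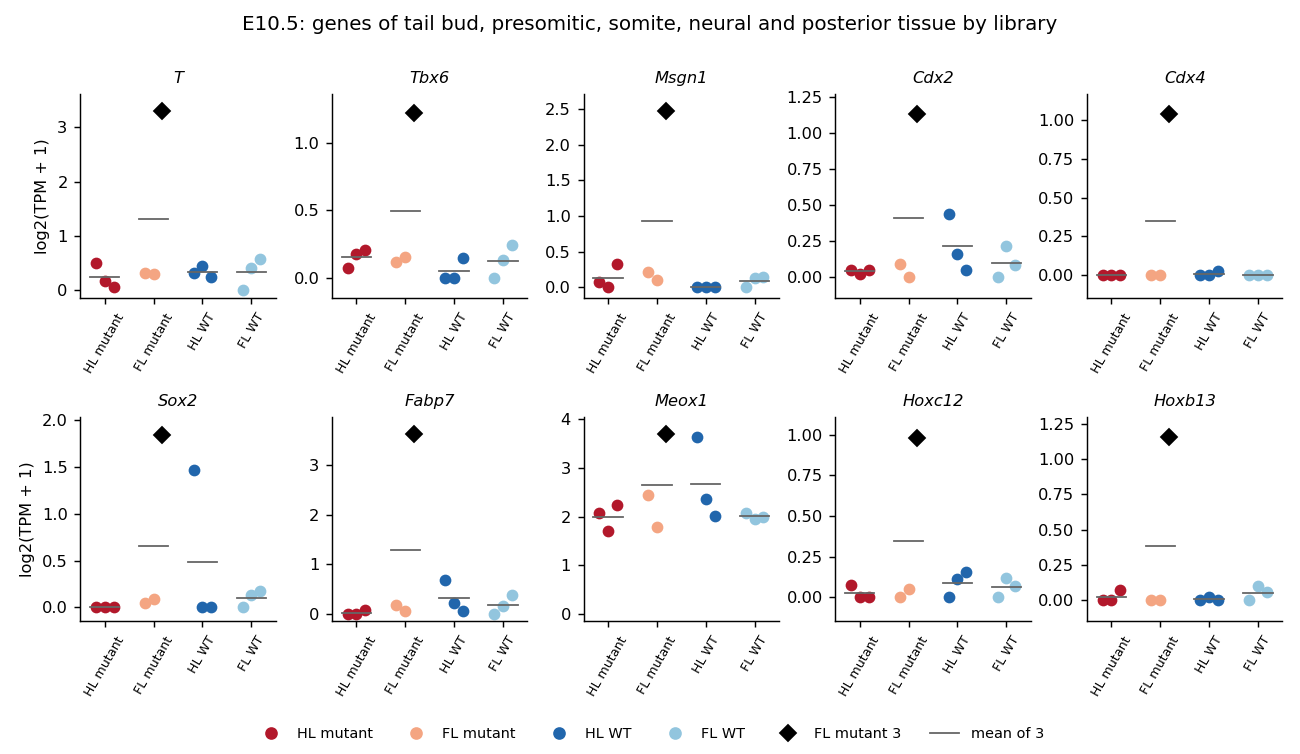
Level of 10 genes of tail bud, presomitic, somite, neural and posterior tissue in each E10.5 library, as log2(TPM + 1) after rescaling (y axis, own range in each panel), with HL mutant, FL mutant, HL WT and FL WT along the x axis. FL mutant 3, the black diamond, is the highest of the 12 libraries in every panel, and grey lines are means of 3 libraries.

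FL mutant 3 also held transcripts of both sexes. Xist, which is expressed from the inactive X of females, was at 9.50 TPM and the Y-linked gene Ddx3y at 7.68 TPM. In the other mutant libraries the pair was exclusive: HL mutants 1 and 3 had Xist at 28.1 and 17.2 TPM with Ddx3y at 0.0325 and 0 TPM, and HL mutant 2 had Ddx3y at 8.89 TPM. FL mutant 1 had Xist at 33.2 TPM and FL mutant 2 had Ddx3y at 11.7 TPM. All 6 WT libraries carried Ddx3y, at 9.15 to 12.2 TPM, and Xist there was at most 1.54 TPM. What produced these values in FL mutant 3 was not tested. Results are therefore given with all 6 mutant libraries, and also without that one where this changed a call or a sign or moved a value by over 1.5 times. The library was set aside because of its hindlimb transcripts, so a larger difference of hindlimb genes without it follows from that choice.

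With all 6 libraries, 7 of 11955 genes (0.0586%) passed an adjusted p of 0.05 in the limma fit, 3 higher (0.0251%) and 4 lower (0.0335%) in HL. Without FL mutant 3 there were also 7 (0.0586%), 4 higher (0.0335%) and 3 lower (0.0251%), and 5 were shared. At an unadjusted p under 0.05 there were 797 and 626 genes. The higher genes were Pitx1, Tbx4 and Gm24500 with all libraries, and Hoxc10, Tbx4, Pitx1 and Isl1 without FL mutant 3. The lower genes were Gria2, Ebf2, Gm17530 and AC154540.1 with all libraries, and the same without Ebf2 when FL mutant 3 was left out. With the replicate number as a block, which pairs HL and FL of one number, 11 genes passed (0.092%), 4 higher (0.0335%) and 7 lower (0.0586%), among them Pitx1, Gria2, AC154540.1 and Gm17530. The calls rest on few libraries: leaving out FL mutant 1, FL mutant 2, HL mutant 1, HL mutant 2 or HL mutant 3 left 1, 1, 2, 1 and 4 genes, AC154540.1 in each, Gria2 in the last, and Pitx1 and Tbx4 in none.

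Pitx1, a homeodomain factor that specifies hindlimb identity (chr13:55825051-55836192, minus strand, GRCm38), was at 11.6, 9.77 and 15.8 TPM in HL mutants and at 0.0142, 0 and 1.80 TPM in FL mutants. Every HL library lay far above every FL library, and the highest FL value was that of FL mutant 3. Pitx1 rose by 3.22 ± 0.41 in HL (adjusted p = 0.019), and by 3.71 ± 0.33 without FL mutant 3 (adjusted p = 0.00155). With only the libraries compared, a pseudocount of 0.1 or no filter on low values, Pitx1 and Tbx4 both missed the threshold (adjusted p = 0.0637, 0.0979 and 0.101 for each gene). In the same limbs of WT, Pitx1 was at 7.35, 9.71 and 20.0 TPM in HL and at 0, 0.0483 and 0.107 TPM in FL (3.55 ± 0.41, adjusted p = 0.0128).

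Tbx4, a T-box factor of hindlimb outgrowth and a known target of Pitx1 in mice (chr11:85886422-85916097, plus strand), was at 10.7, 8.21 and 8.39 TPM in HL mutants and at 0.315, 0.268 and 1.99 TPM in FL mutants. The groups did not overlap. It rose by 2.56 ± 0.32 in HL (adjusted p = 0.019), by 2.96 ± 0.26 without FL mutant 3 (adjusted p = 0.00155), and missed the threshold with the replicate block (adjusted p = 0.0516). In WT it was at 5.81, 7.18 and 11.7 TPM in HL and at 0.297, 0.785 and 0.753 TPM in FL.

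Isl1, a LIM homeodomain factor needed to start the mouse hindlimb (chr13:116298281-116309689, minus strand), was at 6.37, 4.35 and 15.4 TPM in HL mutants and at 0.200, 0.158 and 10.4 TPM in FL mutants. FL mutant 3 lay within the HL range, and the other FL libraries lay below it. The difference was 1.78 ± 0.72 with all libraries (adjusted p = 0.717). Without FL mutant 3 Isl1 rose by 2.87 ± 0.38 (adjusted p = 0.0242).

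Promoter sequences are shown for the hindlimb genes that RefSeq's table (GRCm38.p6) holds, because Tbx4 and Isl1 stand beside Pitx1 among the genes higher in HL and Pitx1 binds the bicoid-type word TAATCC. Of Pitx1, Tbx4, Tbx5, Isl1 and Hoxc10, 2 matched. Each run covers 250 bases before to 50 bases after the gene's start in RefSeq on its own strand (Isl1 at chr13:116309639-116309938, minus strand, and Tbx4 at chr11:85896515-85896814, plus strand), with matches to TAATCC or its reverse GGATTA in capitals.
Isl1: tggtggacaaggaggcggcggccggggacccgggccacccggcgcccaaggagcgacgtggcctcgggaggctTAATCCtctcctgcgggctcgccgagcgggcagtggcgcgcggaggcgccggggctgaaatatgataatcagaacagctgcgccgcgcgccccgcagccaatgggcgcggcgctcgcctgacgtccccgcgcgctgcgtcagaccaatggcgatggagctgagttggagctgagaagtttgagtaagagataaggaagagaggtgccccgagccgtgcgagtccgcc
Tbx4: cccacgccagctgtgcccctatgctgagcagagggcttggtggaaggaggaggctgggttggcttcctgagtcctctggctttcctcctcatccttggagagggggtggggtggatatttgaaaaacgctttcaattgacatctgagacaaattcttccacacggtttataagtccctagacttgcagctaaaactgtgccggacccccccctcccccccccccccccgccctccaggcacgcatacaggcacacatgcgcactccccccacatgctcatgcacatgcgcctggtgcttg
RefSeq's start of Tbx4 lies inside the GENCODE span given above and not at its first base, so the Tbx4 run does not cover the first base of that span. The Isl1 run held 1 match, starting 177 bases before the start of the gene, and the Tbx4 run held 0. Of 32851 promoters of the same length, 2320 (7.06%) held the word on either strand. A match is a run of letters and not a measured site.

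The clustered homeobox gene Hoxc10 (chr15:102966796-102971893, plus strand) was at 9.21, 7.79 and 6.61 TPM in HL mutants and at 0.187, 0.05 and 4.62 TPM in FL mutants. All HL libraries lay above all FL libraries, with FL mutant 3 nearest to them. It rose by 2.98 ± 0.19 without FL mutant 3 (adjusted p = 0.000211), and was 2.20 ± 0.49 higher with it (adjusted p = 0.262). With FL mutant 3 kept, Hoxc10 passed on the deposited scale (adjusted p = 0.0243) and with all 24 libraries in the fit (adjusted p = 0.00935). Its neighbours Hoxc9 and Hoxc11 were below the threshold, and for Hoxc11 FL mutant 3 lay above all HL libraries. Hoxc9 was at 1.60, 2.03 and 1.76 TPM in HL mutants and at 0.559, 0.326 and 1.48 TPM in FL mutants (0.70 ± 0.22, adjusted p = 0.59). Hoxc11 was at 1.82, 1.63 and 2.01 TPM in HL mutants and at 0.0350, 0.0313 and 2.19 TPM in FL mutants (0.90 ± 0.40, adjusted p = 0.736, and 1.45 ± 0.28 without FL mutant 3). Hoxc12 and Hoxc13 were too low to be tested and reached at most 0.104 TPM in HL mutants. Of the 8 listed hindlimb genes, 6 were tested, 2 passed with all libraries and 4 without FL mutant 3, where 0.0586% of all genes passed in each fit. The median difference of the 6 was 1.99 with all libraries and 2.92 without FL mutant 3, against -0.02 for all genes in both fits.

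Tbx5, the T-box factor that starts the forelimb, was at 0.0187, 0.125 and 0.446 TPM in HL mutants and at 6.22, 6.04 and 2.14 TPM in FL mutants. The groups did not overlap, and FL mutant 3 was the lowest of FL. The difference was -2.20 ± 0.43 (adjusted p = 0.188), and -2.59 ± 0.42 without FL mutant 3 (adjusted p = 0.068), so Tbx5 missed the threshold in both fits. It passed with all 24 libraries in the fit (adjusted p = 0.00725), and without FL mutant 3 on the deposited scale (adjusted p = 0.0261) and over nuclear protein-coding genes only (adjusted p = 0.0253). Tbx5 fell in HL of WT, by 2.78 ± 0.43 (adjusted p = 0.0433), but the test of the difference between genotypes gave 0.59 ± 0.61 (adjusted p = 1). The rostral genes of the Hoxc cluster were lower in HL mutants without passing. Hoxc5 was at 2.23, 1.41 and 1.34 TPM in HL mutants and at 5.30, 3.41 and 3.53 TPM in FL mutants (-0.93 ± 0.23, adjusted p = 0.345), and Hoxc4 differed by -0.45 ± 0.18 (adjusted p = 0.717). Hoxc6 differed by -0.31 ± 0.22 and Hoxc8 by 0.05 ± 0.18 (0.15 ± 0.20 without FL mutant 3). The annotated span of Hoxc5 runs over its neighbours from Hoxc6 to Hoxc10, so the split of reads among these genes is uncertain. None of the 5 listed forelimb genes passed with or without FL mutant 3 on rescaled values, apart from the Tbx5 calls in other settings given above. Of these 5 genes, 3 did not overlap between the limbs and were lower in HL, where 9.44% of all genes tested lay that way and 7.93% lay higher without overlap.

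**Figure D2:**
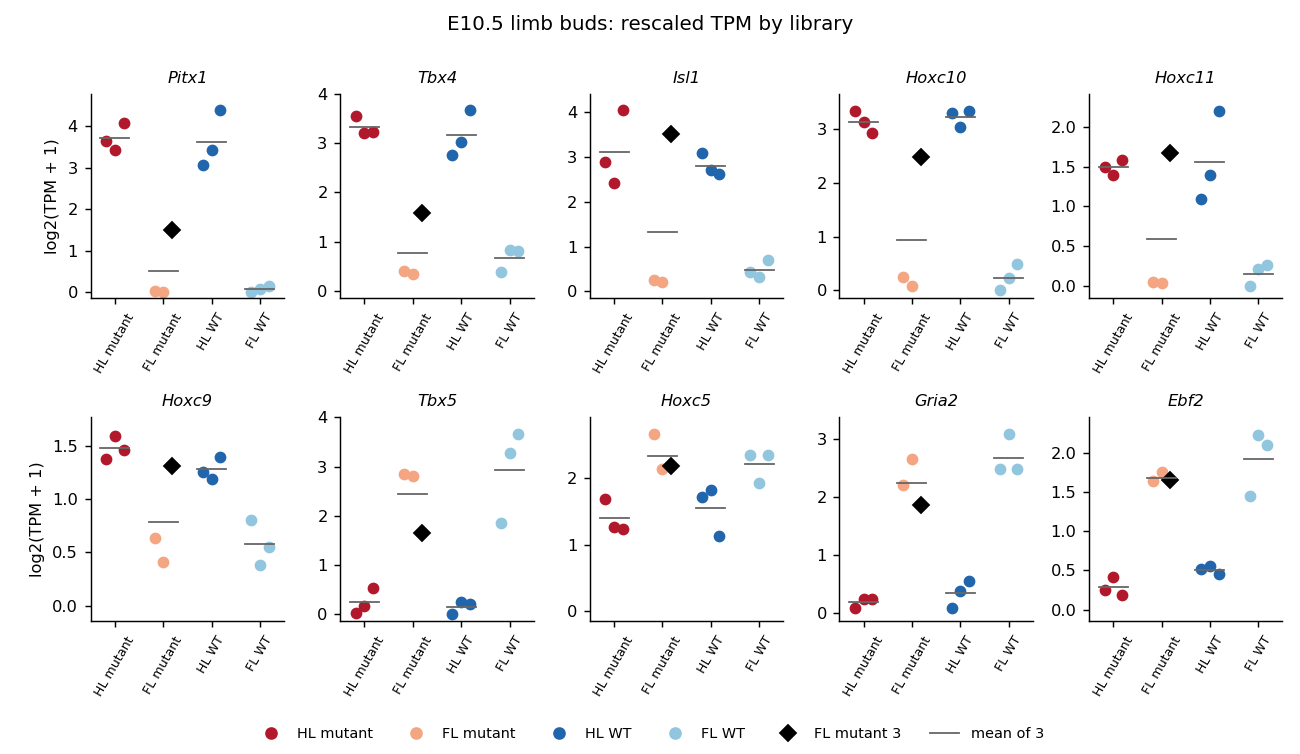
Level of 10 limb genes in each E10.5 library as log2(TPM + 1) after rescaling (y axis, own range in each panel), with HL mutant, FL mutant, HL WT and FL WT along the x axis and grey lines for means of 3 libraries. In the 6 panels of hindlimb genes FL mutant 3 (black diamond) lies above the other FL mutant libraries, while for Gria2 and Ebf2 all FL libraries lie above all HL libraries.

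Among genes outside limb type lists, Gria2, a subunit of AMPA-type glutamate receptors (chr3:80681450-80802835, minus strand), was lower in HL. It was at 0.0542, 0.185 and 0.179 TPM in HL mutants and at 3.62, 5.31 and 2.63 TPM in FL mutants, with no overlap and no exception for FL mutant 3. Gria2 fell by 2.06 ± 0.23 in HL (adjusted p = 0.0111) and passed with the replicate block and without FL mutant 3 as well. It missed the threshold on the deposited scale (adjusted p = 0.073), without the filter (adjusted p = 0.0738) and in the blocked fit without both mutant libraries numbered 3 (adjusted p = 0.0858). In WT it was at 0.0605, 0.292 and 0.463 TPM in HL and at 4.59, 7.53 and 4.58 TPM in FL (-2.35 ± 0.23, adjusted p = 0.00567). Ebf2, a transcription factor of the early B-cell factor family (chr14:67233292-67430918, plus strand), was at 0.188, 0.338 and 0.143 TPM in HL mutants and at 2.12, 2.37 and 2.15 TPM in FL mutants. Ebf2 fell by 1.40 ± 0.19 in HL (adjusted p = 0.0227), but missed the threshold without FL mutant 3 (adjusted p = 0.068) and with the replicate block (adjusted p = 0.0664), as well as on the deposited scale (adjusted p = 0.308) and without the filter (adjusted p = 0.147).

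Of the other genes that passed, 3 have no known role to give. Gm17530 (chr9:86546682-86547153, minus strand) was at 0.861, 0.413 and 1.26 TPM in HL mutants and at 32.4, 28.9 and 11.9 TPM in FL mutants, and it fell by 3.70 ± 0.48 (adjusted p = 0.0204). It missed the threshold with a pseudocount of 0.1 (adjusted p = 0.372) and without the filter (adjusted p = 0.111). Gm17530 levels in WT were 0 to 2.22 TPM in HL and 0 to 1.44 TPM in FL. AC154540.1 was listed at 0 in all 3 HL mutant libraries and at 150, 331 and 269 TPM in FL mutants (adjusted p = 0.00367). It missed the threshold in the blocked fit without both mutant libraries numbered 3 (adjusted p = 0.2). In WT it was at 57.3, 252 and 39.9 TPM in HL and at 591, 82.3 and 115 TPM in FL, so its groups overlapped there, and it was listed at 0 in the HL and FL mutant libraries of E11.5. Gm24500 (chr15:34139253-34139376, minus strand) was at 31.4, 25.0 and 17.0 TPM in HL mutants and listed at 0 in FL mutants (adjusted p = 0.0384, but 0.0839 without FL mutant 3 and 0.0772 with the replicate block). It was listed at 0 in 5 of the 6 WT libraries. Gm17530 and Gm24500 were named after their values were seen.

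With the replicate block, genes chosen here after their values were seen also passed. Lin28a, an RNA-binding protein of early developmental timing, was at 36.5, 27.7 and 25.3 TPM in HL mutants and at 11.1, 6.10 and 11.1 TPM in FL mutants. It rose by 1.59 ± 0.17 in the blocked fit (adjusted p = 0.0381), and missed the threshold without the block (adjusted p = 0.188). Dlk1, a membrane protein of the Notch ligand family, was at 31.4, 23.9 and 32.4 TPM in HL mutants and at 15.2, 11 and 15.5 TPM in FL mutants (1.03 ± 0.10, blocked adjusted p = 0.0338). Crmp1 rose by 1.28 ± 0.13 in that fit, while Pmaip1, a p53 target that promotes cell death, fell by 1.33 ± 0.12 and the gap junction gene Gjb2 by 1.15 ± 0.11. The HL and FL mutant libraries numbered 3 did not match in Ddx3y, as given above. In the blocked fit without both mutant libraries numbered 3, which keeps 2 pairs, Lin28a passed and Dlk1, Crmp1, Pmaip1 and Gjb2 did not. In WT, Lin28a and Pmaip1 passed with the block, and Lin28a rose without it (2.18 ± 0.32, adjusted p = 0.0372).

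**Figure D3:**
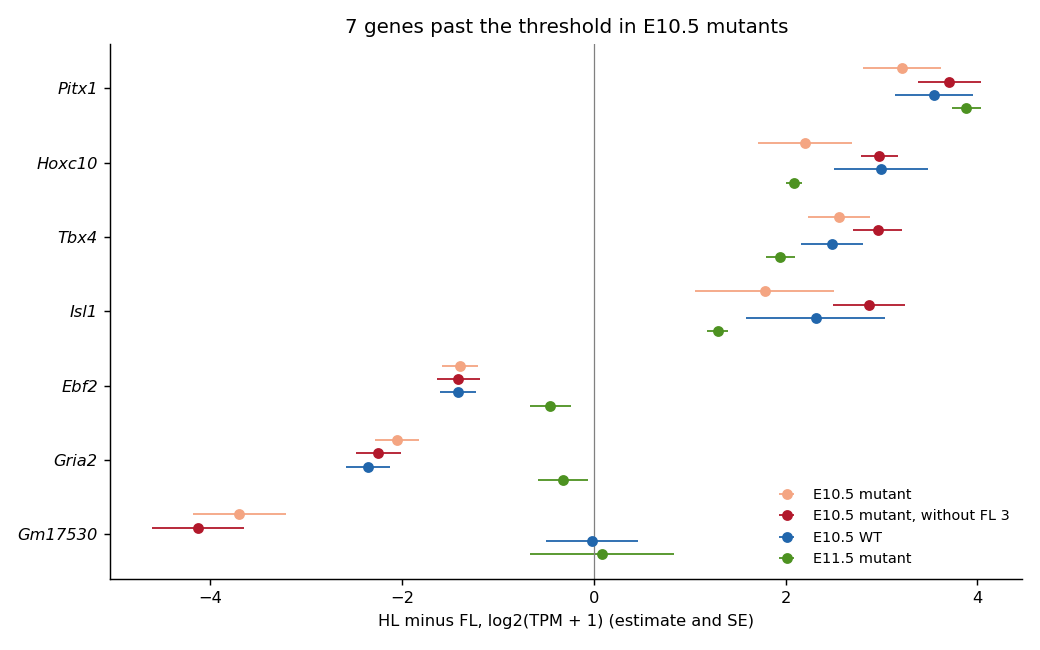
HL minus FL difference in log2(TPM + 1) with its standard error (x axis) for 7 genes past the threshold in E10.5 mutants with or without FL mutant 3 (y axis), in 4 comparisons. Pitx1, Tbx4, Hoxc10 and Isl1 lie to the right of 0 and Gria2 and Ebf2 to the left in every comparison drawn, while Gm17530 is far from 0 only in E10.5 mutants. AC154540.1 and Gm24500 are left out because a mutant group was listed at 0.

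Outside Hoxc no Hox gene passed in mutants on rescaled values over all genes, with or without FL mutant 3. Toward the caudal end of Hoxb, Hoxb9 was at 5.33, 4.83 and 4.14 TPM in HL mutants and at 1.01, 0.704 and 4.46 TPM in FL mutants. The difference was 1.11 ± 0.38 with all libraries and 1.63 ± 0.26 without FL mutant 3 (adjusted p = 0.068), against 1.66 ± 0.38 in WT. Over nuclear protein-coding genes only and without FL mutant 3, Hoxb9 passed (adjusted p = 0.0253). Hoxb7 differed by 0.32 ± 0.31 (0.63 ± 0.29 without FL mutant 3). None of the 11 Hoxa genes passed, and their median difference was -0.05 (-0.02 without FL mutant 3). Hoxa9 was at 21.9, 23.0 and 23.4 TPM in HL mutants and at 24.4, 21.7 and 16.1 TPM in FL mutants (0.15 ± 0.14, and -0.02 ± 0.12 without FL mutant 3). Hoxa10 differed by 0.44 ± 0.16 (adjusted p = 0.67).

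Of the 7 tested Hoxd genes none passed and 6 were lower in HL mutants, with a median of -0.40. Hoxd9 was at 3.71, 3.24 and 2.25 TPM in HL mutants and at 6.63, 5.91 and 3.45 TPM in FL mutants (-0.62 ± 0.25, adjusted p = 0.72). Hoxd10 was at 12.8, 12.1 and 6.93 TPM in HL mutants and at 15.9, 15.2 and 11.49 TPM in FL mutants (-0.42 ± 0.21). Hoxd4 differed by -0.47 ± 0.30. On the deposited scale the Hoxd median was 0.13, which is below the shift of 0.45 of all genes. In WT 7 of 7 were lower, with a median of -0.74. Hoxd11 differed by -0.08 ± 0.25 in mutants and by -0.83 ± 0.25 in WT (difference between genotypes 0.75 ± 0.35, adjusted p = 1). Hoxd12 differed by -0.20 ± 0.48 in mutants and by -1.12 ± 0.48 in WT (difference between genotypes 0.92 ± 0.68, adjusted p = 1). Hoxd13 differed by 0.11 ± 0.54 in mutants and by -0.89 ± 0.54 in WT (difference between genotypes 1.00 ± 0.76, adjusted p = 1). The mutant differences without FL mutant 3 were 0.07 ± 0.53 for Hoxd12 and 0.44 ± 0.59 for Hoxd13.

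**Figure D4:**
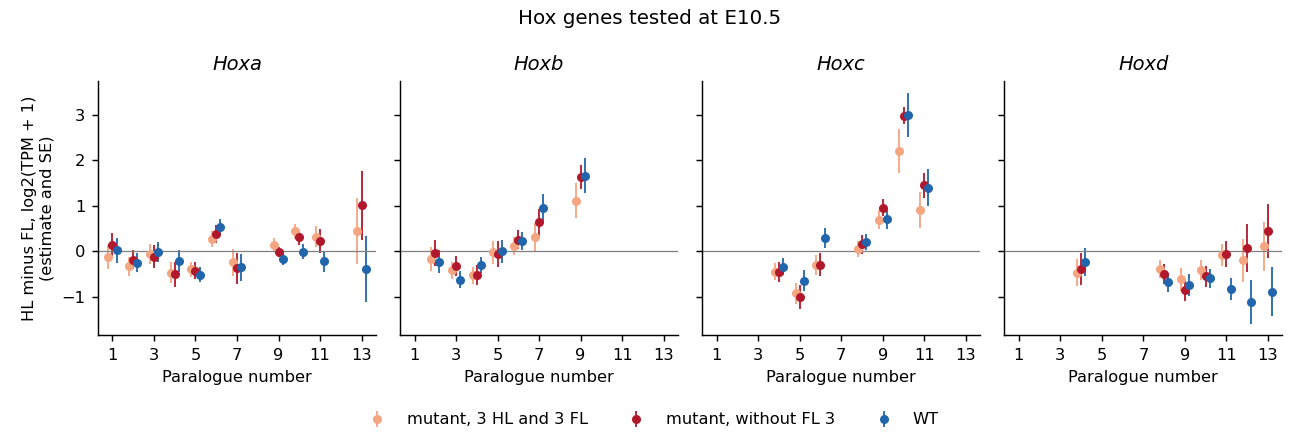
HL minus FL difference in log2(TPM + 1) with its standard error (y axis) against paralogue number (x axis) for the tested genes of the 4 Hox clusters at E10.5, in mutants with all 6 libraries, in mutants without FL mutant 3, and in WT. Hoxc10 lies highest in each of the 3 sets (2.20 in mutants with all libraries, 2.98 without FL mutant 3 and 3.00 in WT).

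Signals that pattern the bud gave no call on rescaled values over all genes, with or without FL mutant 3. The retinoic acid and proximodistal group had 0 of 19 tested genes past the threshold and a median of 0.02 (-0.09 without FL mutant 3). In that group Aldh1a2, the enzyme that makes retinoic acid, was at 9.45, 9.10 and 17.4 TPM in HL mutants and at 1.86, 0.304 and 10.3 TPM in FL mutants. FL mutant 3 lay within the HL range, and the difference was 1.84 ± 0.61 with all libraries (adjusted p = 0.589) and 2.69 ± 0.39 without it (adjusted p = 0.0566). Aldh1a2 passed without FL mutant 3 on the deposited scale (adjusted p = 0.000534) and over nuclear protein-coding genes only (adjusted p = 0.0185). The retinoic acid receptor gene Rarb, itself a target of retinoic acid, was at 12.5, 11.1 and 12.9 TPM in HL mutants and at 6.45, 6.38 and 8.46 TPM in FL mutants (0.71 ± 0.16, adjusted p = 0.286). Crabp1 and Crabp2, which bind retinoic acid in the cytoplasm, differed in opposite directions, by 0.78 ± 0.32 and -0.27 ± 0.14.

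The sonic hedgehog group had a median of 0.06 (0.04 without FL mutant 3) over 14 tested genes, with Smo at -0.09 ± 0.16 and the co-receptor gene Gas1 at 0.24 ± 0.17. The FGF and apical ridge group had a median of 0.06 (-0.04 without FL mutant 3) over 17 tested genes. Dusp6, a phosphatase induced by FGF signalling, was at 63.2, 52.7 and 27.2 TPM in HL mutants and at 32.1, 30.8 and 20.0 TPM in FL mutants (0.71 ± 0.28, adjusted p = 0.698), and its groups overlapped. Etv4, an FGF target, was at 14.8, 11.3 and 7.02 TPM in HL mutants and at 8.69, 6.40 and 6.16 TPM in FL mutants (0.53 ± 0.21, adjusted p = 0.709). Fgfr2 differed by -0.40 ± 0.18 (-0.25 ± 0.19 without FL mutant 3). The BMP group had a median of 0.11 over 14 genes (Id2 -0.42 ± 0.17, Id3 0.15 ± 0.25, or 0.35 ± 0.26 without FL mutant 3) and the Wnt group -0.03 over 29. In the Wnt group Rspo2, a secreted enhancer of Wnt signalling in the limb, was at 3.72, 3.92 and 3.93 TPM in HL mutants and at 2.28, 2.11 and 1.65 TPM in FL mutants (0.69 ± 0.14, adjusted p = 0.188). Axin2 differed by 0.29 ± 0.22 and Sfrp1 by 0.20 ± 0.15. Of the dorsoventral genes, Lmx1b differed by 0.37 ± 0.38 (-0.02 ± 0.36 without FL mutant 3) and Wnt7a by 0.08 ± 0.25.

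The mesenchymal transcription factors gave both directions, 0 of 23 past the threshold and a median of -0.03 (-0.18 without FL mutant 3). Alx4, a repressor of anterior hedgehog signalling, was at 9.14, 8.16 and 5.29 TPM in HL mutants and at 3.60, 3.98 and 2.36 TPM in FL mutants (0.97 ± 0.19, adjusted p = 0.188). The groups did not overlap. Sall4 differed by 0.69 ± 0.28. On the other side, Meox2 was at 1.90, 2.64 and 2.15 TPM in HL mutants and at 5.94, 6.34 and 4.31 TPM in FL mutants (-1.01 ± 0.34, adjusted p = 0.589). Tbx18 was at 2.11, 3.02 and 1.54 TPM in HL mutants and at 3.83, 5.58 and 1.69 TPM in FL mutants, with FL mutant 3 inside the HL range (-0.48 ± 0.32, and -0.83 ± 0.28 without it). Prrx1 and Prrx2, whose products mark limb mesenchyme, differed by -0.09 ± 0.33 and -0.03 ± 0.35, and without FL mutant 3 by -0.37 ± 0.33 and -0.33 ± 0.35.

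Of the 16 tested matrix genes 10 were higher and 6 lower in HL mutants, with a median of 0.08 and no call. Vcan, a proteoglycan of the bud's matrix, was at 16.4, 22.1 and 17.9 TPM in HL mutants and at 38.0, 43.5 and 29.7 TPM in FL mutants (-0.94 ± 0.20, adjusted p = 0.195). Col1a2, a chain of type I collagen, was at 6.54, 6.24 and 6.33 TPM in HL mutants and at 12.5, 14.1 and 9.29 TPM in FL mutants (-0.80 ± 0.21, adjusted p = 0.44). Outside that list, the ephrin receptor genes Epha3 and Epha7 differed by -0.998 ± 0.21 and -0.79 ± 0.20, again without overlap or call. Col3a1 differed by 0.20 ± 0.15. The cartilage group had a median of -0.31 over 8 genes (Hapln1 -0.33 ± 0.23, or -0.06 ± 0.19 without FL mutant 3, Col2a1 -0.20 ± 0.23). The cartilage median was 0.17 on the deposited scale, below the shift of all genes.

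Red cell genes had lower values in HL mutants and vessel genes higher ones. In bulk buds fewer cells of a type and less RNA per cell cannot be told apart. All 12 tested red cell genes were lower in HL mutants, with a median of -0.89 and none past the threshold, and on the deposited scale 10 of 12 were. Hbb-y, an embryonic globin, was at 1246, 949.3 and 1213 TPM in HL mutants and at 2152, 2126 and 2616 TPM in FL mutants (-1.02 ± 0.29, adjusted p = 0.52). Hbb-bh1 was at 773.6, 591.2 and 814.0 TPM in HL mutants and at 1425, 1320 and 1755 TPM in FL mutants (-1.05 ± 0.26, adjusted p = 0.36). Hba-x differed by -1.07 ± 0.43. The summed level of the red cell list was 2245 to 3291 TPM in HL mutants and 5241 to 6537 TPM in FL mutants. It was 1647 to 4077 TPM in HL of WT and 2401 to 3393 TPM in FL of WT, so the limbs overlapped there. Adult globin pairs are near-identical copies, so their split is uncertain.

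All 13 tested endothelial genes were higher in HL mutants, with a median of 0.41 and none past the threshold. Kdr, a VEGF receptor, was at 8.88, 7.93 and 3.59 TPM in HL mutants and at 3.02, 3.97 and 3.04 TPM in FL mutants (0.78 ± 0.31). Plvap, a protein of vessel walls, was at 7.78, 5.57 and 4.14 TPM in HL mutants and at 3.06, 2.91 and 3.27 TPM in FL mutants (0.71 ± 0.21, adjusted p = 0.526). Egfl7 differed by 0.55 ± 0.20, Emcn by 0.26 ± 0.17 (0.41 ± 0.17 without FL mutant 3) and Cdh5 by 0.44 ± 0.21. The list summed to 67.1 to 99.4 TPM in HL mutants and 53.6 to 57.6 TPM in FL mutants, and in WT to 64.6 to 81.3 TPM in HL and 45.5 to 59.5 TPM in FL.

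Muscle precursor genes were lower in HL mutants for 7 of 8 tested members, with a median of -0.57 and no call. Pax3, the factor of migrating muscle precursors, was at 1.13, 1.09 and 0.740 TPM in HL mutants and at 3.04, 2.58 and 3.21 TPM in FL mutants (-0.99 ± 0.21, adjusted p = 0.223, and 0.0467 with all 24 libraries in the fit). In WT Pax3 was at 3.42, 1.60 and 1.52 TPM in HL and at 1.78, 2.59 and 1.88 TPM in FL. The test of the difference between genotypes gave -0.99 ± 0.30 (unadjusted p = 0.00683, adjusted p = 1). Met, the receptor that guides these cells, was at 2.92, 2.77 and 2.82 TPM in HL mutants and at 5.92, 5.34 and 4.72 TPM in FL mutants (-0.72 ± 0.16, adjusted p = 0.262). Eya1 differed by -0.49 ± 0.24 and Six4 by -0.06 ± 0.15 (-0.10 ± 0.17 without FL mutant 3). The later muscle genes Myf5, Myod1, Myog and Pax7 were too low to be tested. The list summed to 16.4 to 21.3 TPM in HL mutants and to 28.1 to 30.6 TPM in FL mutants. In WT 7 of 8 tested members were lower in HL too, with a median of -0.16. The list summed there to 20.9 to 25.5 TPM in HL and to 27.9 to 37.1 TPM in FL, without overlap. In E11.5 mutants 8 of 8 were lower in HL, with a median of -0.38.

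Surface ectoderm genes were lower in HL mutants for 15 of 17 tested members, with a median of -0.39 (-0.24 without FL mutant 3) and no call. On the deposited scale 7 of 17 were lower, with a median of 0.07 that lies below the shift of all genes. The other comparisons leaned the opposite way. In WT 11 of 17 were higher in HL, with a median of 0.11, and in E11.5 mutants 15 of 17 were higher, with a median of 0.31. Of the 18 members in the files, 11 had their highest E10.5 level in FL mutant 3. Cdh1, the epithelial cadherin, was at 1.66, 2.20 and 2.90 TPM in HL mutants and at 3.89, 3.29 and 5.41 TPM in FL mutants (-0.67 ± 0.19, adjusted p = 0.52). The basal keratin gene Krt14 was at 0.869, 0.630 and 1.51 TPM in HL mutants and at 2.98, 1.96 and 3.92 TPM in FL mutants (-0.97 ± 0.32, adjusted p = 0.589). Krt18 differed by -0.41 ± 0.39 (-0.06 ± 0.38 without FL mutant 3) and Cldn6 by -0.39 ± 0.25, and HL mutant 3 (23.4 TPM of Krt18) stood with FL mutant 3 (26.7 TPM) above the rest.

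Of the remaining cell types, 5 neural genes were tested and had a median of -0.51, and of -0.29 without FL mutant 3. Tubb3, a neuronal tubulin, was at 0.985, 1.41 and 1.47 TPM in HL mutants and at 4.51, 2.63 and 4.55 TPM in FL mutants (-1.08 ± 0.22, adjusted p = 0.188, and 0.00935 with all 24 libraries in the fit). Dcx differed by -0.98 ± 0.28 and Gap43 by -0.08 ± 0.23 (-0.29 ± 0.23 without FL mutant 3). Body wall and lateral plate genes had 4 tested members, all higher in HL, with a median of 0.44. Gata6 was at 1.93, 1.66 and 3.53 TPM in HL mutants and at 0.589, 0.172 and 1.30 TPM in FL mutants (1.01 ± 0.29, adjusted p = 0.523), and Bnc1 differed by 0.15 ± 0.18 (0.28 ± 0.19 without FL mutant 3). In 6 tested myeloid genes the median was 0.05, and 0.02 without FL mutant 3 (Tyrobp -0.22 ± 0.36 and -0.11 ± 0.42, Lyz2 0.21 ± 0.30 and 0.34 ± 0.33 in the same order). Further listed genes had differences with no call: Erbb3 (-0.18 ± 0.16), Scx (-0.88 ± 0.47), Meox1 (-0.64 ± 0.47), Gata3 (0.45 ± 0.34), Sox17 (0.10 ± 0.19), Myl7 (-0.36 ± 0.28), Tnni1 (-0.17 ± 0.36), Apoa2 (0.21 ± 0.32) and Afp (0.23 ± 0.78). Leaving out FL mutant 3, Meox1 differed by -0.11 ± 0.40, Erbb3 by -0.04 ± 0.17, Myl7 by -0.56 ± 0.30, Tnni1 by 0.09 ± 0.38 and Afp by 0.03 ± 0.90.

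**Figure D5:**
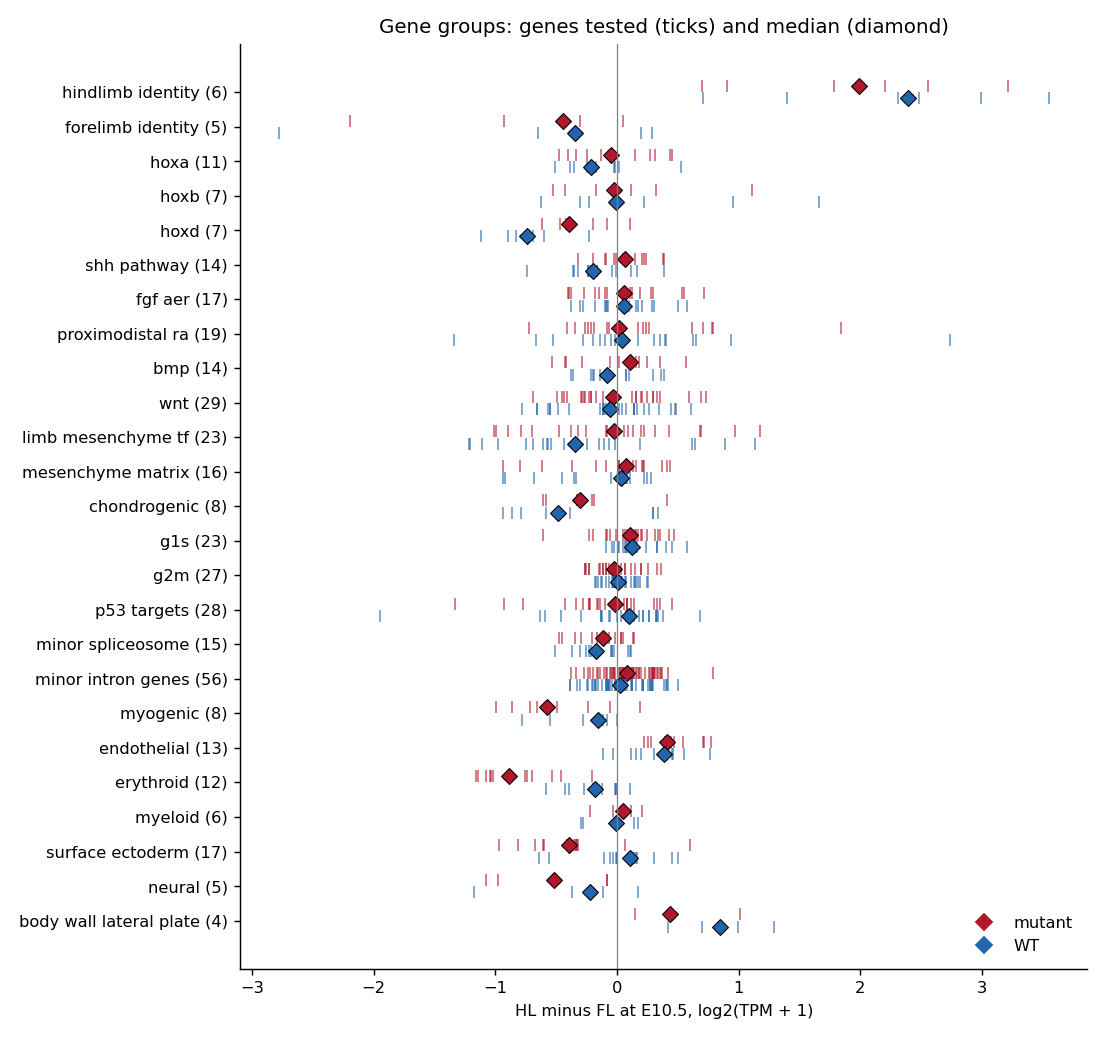
HL minus FL difference in log2(TPM + 1) at E10.5 (x axis) for the tested genes of each list with 4 or more of them (y axis, number in parentheses), as ticks with the median as a diamond, in mutants with all 6 libraries (red, upper row) and WT (blue, lower row). Hindlimb genes lie highest, with medians of 1.99 in mutants and 2.40 in WT, and the red cell median of -0.89 in mutants is the lowest.

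The cell division, p53 and splicing lists differed little in their medians between the mutant limbs. The G1/S list had a median of 0.11 over 23 genes (Pcna 0.05 ± 0.18, Mcm7 0.20 ± 0.17). The G2/M list had a median of -0.02 over 27, and of 4.4e-05 without FL mutant 3 (Top2a -0.23 ± 0.13, Cdk1 -0.14 ± 0.19 with all libraries). The p53 list had a median of -0.01 (-0.06 without FL mutant 3) over 28 genes, and Trp53 itself differed by 0.36 ± 0.20 and the target gene Bax by -0.10 ± 0.21. Trp53inp1, a p53 target, was at 1.73, 2.46 and 3.16 TPM in HL mutants and at 4.79, 5.83 and 5.79 TPM in FL mutants (-0.92 ± 0.22, adjusted p = 0.316). Protein genes of the minor spliceosome had a median of -0.11 over 15 genes (Zcrb1 -0.06 ± 0.13, Ppil2 0.03 ± 0.11). Genes known to hold minor introns had a median of 0.08 (0.12 without FL mutant 3) over 56, with 37 higher and 19 lower in HL (Snrpe -0.06 ± 0.20, Ubl5 -0.23 ± 0.15). Of these 56, 14 lay higher and 5 lower in HL without overlap, where 7.93% and 9.44% of all genes did. Summed levels did not overlap for the G1/S list (961 to 1000 TPM in HL mutants, 870 to 921 TPM in FL mutants). Nor did they for the minor spliceosome list (133 to 140 TPM in HL mutants, 147 to 149 TPM in FL mutants). Both lists were separated in the same direction in WT, so this was not particular to mutants. The G1/S sums were 952 to 995 TPM in HL of WT and 881 to 903 TPM in FL of WT. Those of the minor spliceosome list were 131 to 136 TPM in HL of WT and 148 to 157 TPM in FL of WT. Values without FL mutant 3 were 0.16 ± 0.19 for Pcna, -0.02 ± 0.21 for Cdk1, -0.12 ± 0.15 for Zcrb1, 0.02 ± 0.22 for Snrpe and -0.13 ± 0.16 for Ubl5. Of the minor intron genes, Ipo4 was at 20.8, 18.2 and 13.2 TPM in HL mutants and at 10.1, 8.86 and 9.53 TPM in FL mutants (0.79 ± 0.18, adjusted p = 0.275). No gene of these 5 lists passed with or without FL mutant 3, but with the replicate block Pmaip1 of the p53 list fell, as given above.

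The same limbs of E10.5 WT embryos gave 11 calls (0.092%) in the same fit, 4 higher (0.0335%) and 7 lower (0.0586%) in HL, and Pitx1, Tbx4, Gria2 and Ebf2 were called in both genotypes. In the fit without FL mutant 3 the WT limbs gave 18 calls (0.151%), 9 higher (0.0753%) and 9 lower (0.0753%). Without overlap, 5.4% of genes lay higher and 6.31% lower in HL of WT. All 9 genes called in mutants with or without FL mutant 3 had the same sign in WT. For some of them that sign carries little. Gm24500 was listed at 0 in most WT libraries, and Gm17530 and AC154540.1 overlapped between the limbs of WT. Over all tested genes, 7644 of 11955 (63.9%) had the same sign in mutants and WT, which share no library. Of the 1143 genes with an unadjusted p under 0.05 in WT, 942 (82.4%) had the same sign in mutants. The test of the difference between genotypes found 0 of 11955 genes (0%) in limma, with 298 at an unadjusted p under 0.05, and 0 and 199 without FL mutant 3. With FL mutant 3 included, the differences of the hindlimb genes between genotypes were -0.34 ± 0.57 for Pitx1, 0.08 ± 0.46 for Tbx4, -0.53 ± 1.02 for Isl1 and -0.80 ± 0.69 for Hoxc10. Over the 6 tested hindlimb genes the median of this difference was -0.42, with 1 positive and 5 negative. Without FL mutant 3 it was 0.20, with 5 positive and 1 negative, where setting aside that library favours a larger difference in mutants. On the deposited scale 2 genes passed this test, AC154540.1 and Gm28037. Gm28037 was at 0, 11.9 and 0 TPM in HL mutants and listed at 0 in FL mutants, and in WT it was listed at 0 in HL and at 71.8, 124 and 65.4 TPM in FL.

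At E11.5, in other libraries, the mutant limbs gave 49 calls among 11126 genes (0.44%), 29 higher (0.261%) and 20 lower (0.18%) in HL, and no difference between the stages was tested. The labels state a trim of 3 nt for reads of the E10.5 libraries and none for those of E11.5. Pitx1 was at 19.2, 15.1 and 12.2 TPM in HL and at 0.144, 0.121 and 0.0395 TPM in FL (3.88 ± 0.15). Hoxc10 was at 4.28, 4.18 and 3.90 TPM in HL and at 0.175, 0.254 and 0.176 TPM in FL (2.09 ± 0.08), and Tbx5 at 0.184, 0.00528 and 0.322 TPM in HL and at 6.94, 7.82 and 6.28 TPM in FL (-2.78 ± 0.10). All 3 passed at E11.5, as did Tbx4 and Isl1. Gria2 was at 2.77, 3.33 and 0.893 TPM in HL and at 3.14, 2.44 and 3.20 TPM in FL there, so the limbs overlapped (-0.32 ± 0.26, adjusted p = 0.533). Of the 7 genes called at E10.5 that were also tested at E11.5, 6 had the same sign, and Gm17530 did not. Over all genes tested at both stages, 4258 of 10830 (39.3%) had the same sign, and 4698 (43.4%) without FL mutant 3. Among genes with an unadjusted p under 0.05 at E11.5 in limma, 621 of 1733 (35.8%) had the same sign, and 749 (43.2%) without FL mutant 3. Genes past the threshold at E11.5 had the same sign in 35 of 46 cases (76.1%), and in 38 (82.6%) without FL mutant 3.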

How the data were processed

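Total RNA of dissected limb buds was sequenced. The authors deposited 1 TPM value for each gene symbol and library. Reads were aligned with HISAT2 on mm10 per the submitters' processing notes. Which quantifier, annotation and strand setting gave the values is not given in the sources used here. Of 38019 symbols, 36217 were found in GENCODE M21 (GRCm38), the source of gene positions.

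Each library was rescaled to an equal median log2 TPM over genes with 5 TPM or more in all 12 libraries of its stage. Genes with at least 1 deposited TPM in at least 3 libraries were kept. Two-sided tests used limma 3.58.1 (R 4.3.3) on log2(TPM + 1), letting the variance follow the mean level, with the 12 libraries of one stage in a fit (8 degrees of freedom left), and Benjamini-Hochberg adjustment over all genes tested and a threshold of 0.05. Fits were tested on simulated data. Members, lists and tests were chosen with earlier results of these data known. Named genes are all listed limb identity genes, genes past the threshold that did not overlap between limbs, with a mean of at least 2 TPM and without predicted genes, list members that passed or the 2 highest of a list where none did, Rnu11, Xist and Ddx3y. Hoxb9, Aldh1a2, Lin28a, Dlk1, Crmp1, Pmaip1, Gjb2 and further list examples with a value in every library were chosen after their values were seen. Single values of some list members are not reported here.

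Residuals of E10.5 mutant libraries of one replicate number correlated at 0.106, 0.182 and 0.198 between HL and FL, which met the criterion of 0.1 for pairing. HL mutant 1 and FL mutant 2 also reached 0.11, and WT (0.0662 to 0.286) and E11.5 mutants (-0.0114 to 0.259) did not meet it. The Y-linked gene Ddx3y did not match between HL mutant 3 and FL mutant 3, since only FL mutant 3 held it. Meeting the criterion therefore does not show that libraries of one number share embryos. Correlations between replicates of a group were 0.899 to 0.971, with 0 identical pairs. The plots were made with matplotlib 3.10.9.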

Additional observations from a re-analysis of the deposited data

How the results depend on the processing

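The mutant count of 7 genes became 3 with a pseudocount of 0.1, 1 without the filter on low values, 11 with the replicate block, 4 over nuclear protein-coding genes only, 11 with only the libraries compared and 27 with all 24 libraries. Without FL mutant 3 it was 13 on the deposited scale and 13 over nuclear protein-coding genes, and leaving out 1 mutant library gave 1 to 7. The WT count of 11 became 29 without the filter, 4 with the replicate block, 17 over nuclear protein-coding genes and 138 with all 24 libraries, and 1 to 18 with 1 library left out. The count for the difference between genotypes became 2 on the deposited scale (3 there without FL mutant 3), 1 with a pseudocount of 0.1, 2 with all 24 libraries and 0 to 1 with 1 library left out. The E11.5 count of 49 became 5140 on the deposited scale, 5112 of them lower in HL, and on that scale the median difference of all genes was -0.44. It became 32 with the replicate block, 19 with only the libraries compared, 22 with all 24 libraries and 15 to 117 with 1 library left out. The causes were not tested. The settings that join FL mutant 3, or both libraries numbered 3, with another choice were added after seeing the data. Signs turned with nuclear protein-coding genes only, without FL mutant 3 for Hoxa9 -0.022, Lmx1b -0.026, Snrpe 0.016 and Tnni1 0.092. Signs turned with replicate block without both mutant libraries numbered 3 for Hoxa9 -0.035, Pcna -0.0069 and Xist -0.13. Signs turned with deposited scale, relative to the median of all genes for Smo 0.015, Prrx1 0.021, Prrx2 0.076, Bax 0.014, Zcrb1 0.050, Snrpe 0.071 and Sox17 -0.056. Signs turned with deposited scale, without FL mutant 3, relative to the median of all genes for Cdk1 0.061 and Snrpe 0.10. With 1 library left out the sign was not stable for Afp (-0.14 to 0.66), Apoa2 (-0.072 to 0.51), Bax (-0.19 to 0.041), Gap43 (-0.29 to 0.052), Hoxa9 (-0.017 to 0.27), Hoxc8 (-0.081 to 0.15), Id3 (-0.051 to 0.35), Lmx1b (-0.021 to 0.67), Lyz2 (-0.012 to 0.34), Pcna (-0.12 to 0.22), Ppil2 (-0.0050 to 0.068), Prrx1 (-0.37 to 0.072), Prrx2 (-0.33 to 0.16), Rnu11 (limma) (-0.48 to 0.71), Six4 (-0.10 to 0.022), Snrpe (-0.25 to 0.15), Sox17 (-0.028 to 0.20), Tnni1 (-0.40 to 0.095), Wnt7a (-0.014 to 0.18), Xist (-1.22 to 1.68). TPM keeps no depth, so precision at low levels cannot be given. The fit without E10.5 FL mutant 3 has no counterpart at E11.5, and the difference between genotypes cannot use only the 2 mutant groups.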
